A study of Mus musculus with 9 samples.

Results

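Astrocyte maturation was followed here through 10 genes that mature astrocytes are known for: the matrix proteoglycans Bcan and Ncan, the transporters and channels Slc4a4, Slc1a2, Aqp4 and Gja1, the cytosolic proteins S100b, Aldh1l1 and Gfap, and the secreted protein Sparcl1. They were chosen by name, with earlier results of these data known, as were the further gene lists below. Each symbol was matched to its Ensembl mouse gene identifier. All 10 were found among the 41128 genes of the count table and all 10 were tested. RNA was sequenced from the dissected dorsal telencephalon, the part of the forebrain that gives rise to cortex and hippocampus, of newborn (P0) mice of strain B6:129SF2/J. Groups of 3 libraries each were labelled TCF4 knockout (KO), TCF4 heterozygote (Het) or wildtype (WT). No agent was given in the labels, and the Tcf4 allele and the part of the gene it removes are not given in the sources used here. The labels name no cell-type-specific driver. They do not say that each library came from a separate pup, so p-values measure only the spread between these libraries, which may be technical. The question the design poses for these genes is how their RNA levels differ with the labelled Tcf4 genotype.

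Astrocytes arise from the radial glia of the ventricular zone once most cortical neurons have been made, and around birth they are still dividing and immature. As they mature they take up synaptic glutamate and buffer potassium, bicarbonate and water, become coupled through gap junctions, and secrete proteins of the brain matrix and of forming synapses. Tcf4 codes for one of the E proteins, helix-loop-helix factors of broad expression; such a factor binds E-box words in DNA as a dimer with itself or with other factors of that family.

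E-box words were looked up in the RefSeq start regions of the members, because these are the letters that proteins of the Tcf4 family bind. RefSeq windows of 300 bases (250 before to 50 after the start, build GRCm38.p6, which has the coordinates of mm10) were at hand for 8 of the 10 members, in 9 windows, with none for Sparcl1 or Aqp4. The words searched on both strands were CAGGTG (reverse complement CACCTG), the palindrome CAGCTG and, as the last, CAGATG (reverse complement CATCTG), and none of these overlaps another at the places found. In the sequences that follow, capitals mark such words. Positions count from the start, with -1 the base before it. They show the member with the most words (Ncan), the other pair that held any (Slc4a4, Slc1a2) and Bcan, a member whose window held none. Bcan was picked with its values known, and a link between words and fold changes was not tested.
Ncan, chr8:70120795-70121094, minus strand: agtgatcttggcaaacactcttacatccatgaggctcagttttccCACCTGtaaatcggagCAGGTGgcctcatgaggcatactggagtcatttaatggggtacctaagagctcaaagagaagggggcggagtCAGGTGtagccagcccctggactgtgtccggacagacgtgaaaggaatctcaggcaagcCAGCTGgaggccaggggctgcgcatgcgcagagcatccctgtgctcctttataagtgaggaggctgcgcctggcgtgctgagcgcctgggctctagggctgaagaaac
Slc4a4, chr5:89027716-89028015, plus strand: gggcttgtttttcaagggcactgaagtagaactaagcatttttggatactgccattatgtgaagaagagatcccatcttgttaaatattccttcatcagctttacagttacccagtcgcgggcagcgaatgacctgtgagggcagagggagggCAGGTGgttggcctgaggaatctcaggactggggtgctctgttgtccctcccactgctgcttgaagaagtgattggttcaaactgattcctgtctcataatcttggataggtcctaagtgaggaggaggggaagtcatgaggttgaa
Slc1a2, chr2:102706188-102706487, plus strand: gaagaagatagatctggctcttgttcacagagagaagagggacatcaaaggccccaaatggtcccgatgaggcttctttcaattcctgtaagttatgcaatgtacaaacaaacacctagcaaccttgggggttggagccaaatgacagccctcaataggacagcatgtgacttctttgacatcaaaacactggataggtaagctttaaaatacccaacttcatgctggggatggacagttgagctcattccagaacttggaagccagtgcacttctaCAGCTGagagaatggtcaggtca
Bcan, chr3:88000307-88000606, minus strand: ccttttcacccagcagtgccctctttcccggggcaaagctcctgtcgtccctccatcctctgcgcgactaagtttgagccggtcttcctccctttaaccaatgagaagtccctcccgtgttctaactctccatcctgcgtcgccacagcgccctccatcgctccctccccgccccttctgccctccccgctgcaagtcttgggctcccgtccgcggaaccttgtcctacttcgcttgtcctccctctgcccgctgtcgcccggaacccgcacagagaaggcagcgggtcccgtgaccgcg

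The Ncan window held CAGGTG words (in either orientation) at -205, -189 and -117 and a CAGCTG word at -58. The second of the Slc4a4 windows held a CAGGTG word at -97, and the Slc1a2 window held a CAGCTG word at 28 bases after the start. The windows of Bcan, Gja1, S100b, Aldh1l1 and Gfap and the first window of Slc4a4 held none of these letters. Both Slc4a4 windows (from 88887010 and from 89027716) lie inside the annotated gene, which begins at 88886818. The Slc1a2 window (from 102706188) also lies inside its gene, which begins at 102658659, as do the Aldh1l1 and Gfap windows inside theirs. Such windows mark a start away from the first base of the annotated gene. In all, 3 of the 9 windows held at least 1 of the words, against 44.3% of 32851 RefSeq windows of the same length. Over those windows CAGGTG was found in 20.2%, CAGCTG in 16.3% and CAGATG in 17.2%. These matches describe letters in a window and do not show where any protein was bound.

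The libraries held 22291940 to 29445788 counts. Tcf4 itself was at 675 ± 79 CPM (counts scaled to a common library size, with TMM factors) in WT, 731 ± 86 in Het and 627 ± 15 in KO (SD, n = 3). The KO to WT difference of Tcf4 was -0.10 on the log2 scale (SE 0.09, adjusted p = 0.36), and that of Het to WT was 0.12 (SE 0.09, adjusted p = 0.33), so the gene-level count was called lower in neither. Counts summed over a gene do not show whether some of its exons are missing. Genotype names are those of the labels throughout, and every direction given here rests on them. The first principal component of log2 CPM (64.1% of the variance) placed the WT libraries at -64.5 to -54.3, the Het libraries at 20.3 to 24.9 and the KO libraries at 35.5 to 39.0. Mitochondrial transcripts took 1.01% to 1.14% of WT counts and 0.716% to 0.840% in the other 6 libraries. Processed pseudogenes, transcript copies that can draw reads from their parent genes, took 0.253% to 0.313% in WT and 0.0804% to 0.10% in the other 6, so WT stood apart in this share as well. WT replicate 2 had 1926 counts of the early-response gene Fos against 84 and 95 in the other WT libraries, and KO replicate 3 was the only library with more than 3 counts of Xist (2730). What these differences contribute to the member values was not tested, other than by leaving out each library in turn.

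In KO tissue, Aqp4, Bcan, Slc1a2, Slc4a4, Aldh1l1 and Gja1 were 1.95-fold to 5.80-fold lower than in WT, and Ncan was lower by a smaller step, at 81.9% of its WT mean. S100b was lower too, from very few counts. Sparcl1 stood at 100.4% of its WT mean, and Gfap varied too much between libraries to be called. In Het tissue the same 8 genes were lower than in WT, and Sparcl1 was lower as well, at 79.6% of its WT mean. In these bulk samples, fewer astrocytes and less RNA of these genes per astrocyte cannot be told apart. Markers of striatum, a neighbouring region, were also lower in the same Het and KO libraries (summed 782 to 861 CPM in WT against 316 to 364 in the other 6). A difference in the tissue taken from each genotype cannot be told apart from a difference within the same tissue.

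By edgeR's quasi-likelihood test, 8 of the 10 members were lower in KO than in WT, none was higher and 2 were not called, with a median log2 fold change of -1.32. Over all 15271 genes tested, 52.8% were called in this comparison (26.3% lower and 26.5% higher), with a median of 0.01. In Het versus WT, 9 members were lower, none was higher and 1 was not called, with a median of -1.09. There 45.9% of all genes were called (23.4% lower and 22.5% higher), with a median of 0.01. Each list below is to be read against the same shares. S100b passed the filter on low counts only through its WT libraries, so its place in the member counts was set in part by the filter. Of the other 9 members, 7 were lower in KO and 8 in Het. No member was higher in either comparison at an unadjusted p under 0.05, or by DESeq2 or limma on log2(FPKM + 1), and the same held for each list below of which none is said to be higher or lower against WT. The KO versus WT and Het versus WT comparisons share the WT libraries and are not independent. Summed over the 10 members, expression was 1921 to 2102 CPM in the WT libraries, 1392 to 1491 in Het and 1334 to 1438 in KO. The summed level of every Het and KO library was below that of every WT library, whereas the Het and KO ranges overlapped.

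**Figure D1:**
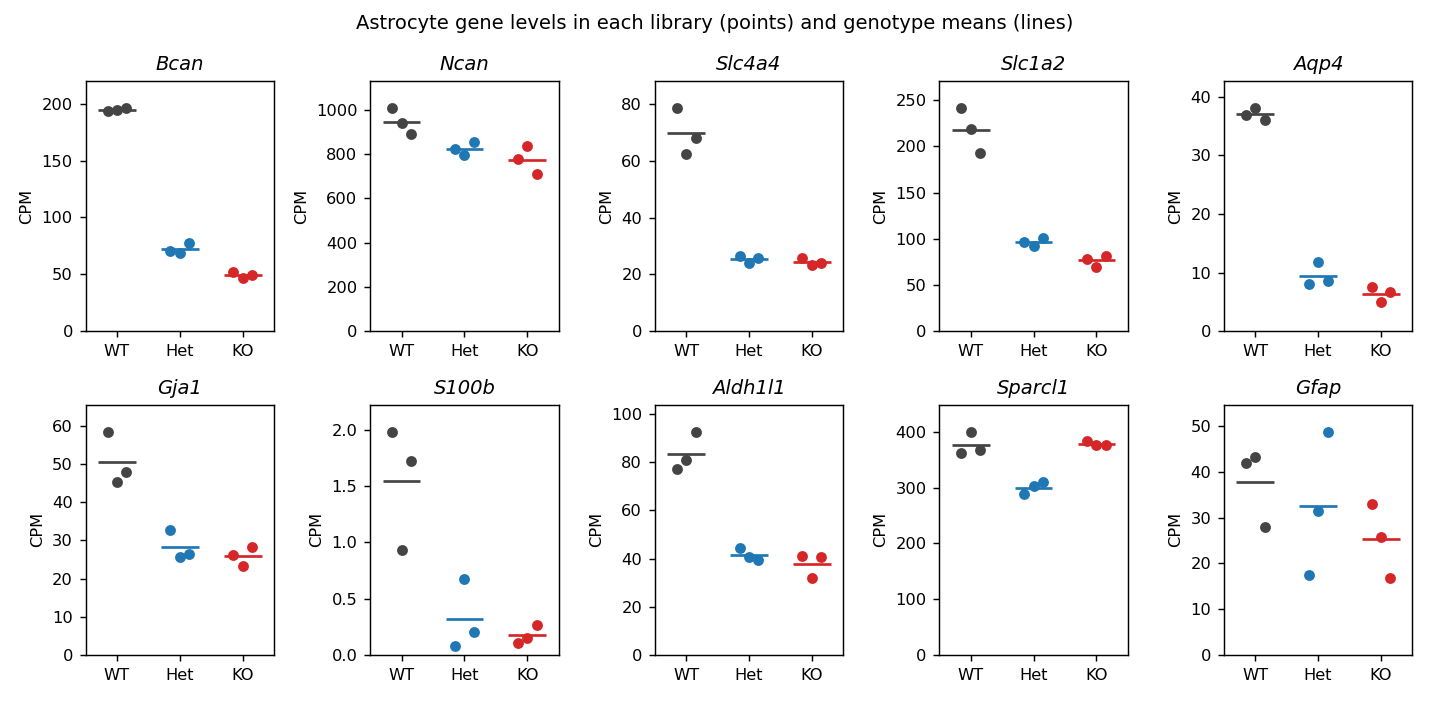
Expression (vertical axis, CPM on TMM-scaled library sizes, each panel from 0) of the 10 astrocyte genes in each library (points) of the WT, Het and KO genotypes, with genotype means as lines. Sparcl1 is lowest in Het (288 to 309 CPM), and the Gfap points of the 3 genotypes overlap.

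**Figure D2:**
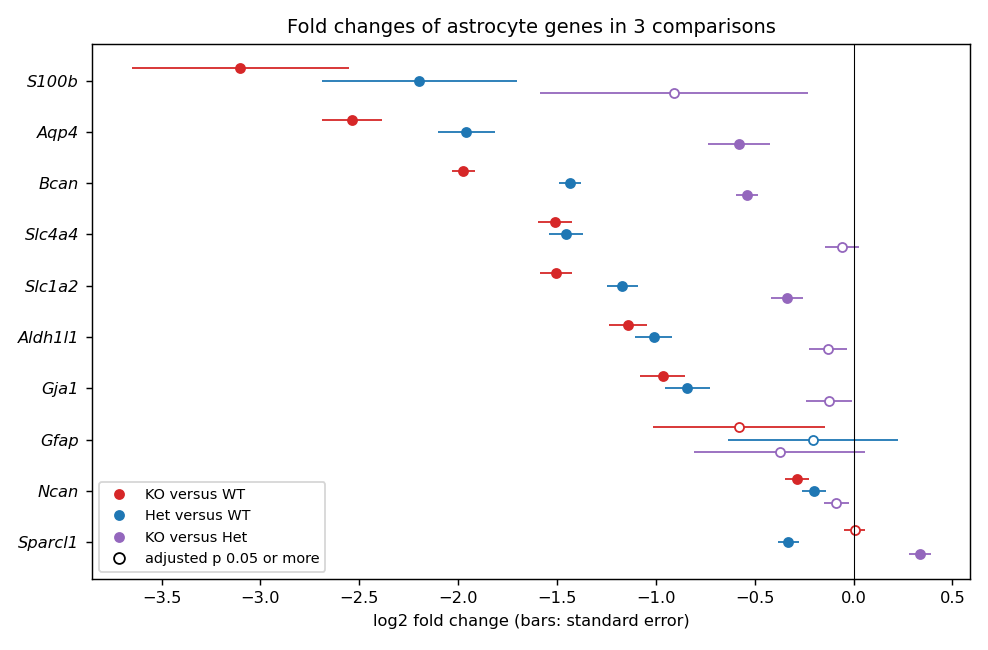
Log2 fold change (horizontal axis) of each astrocyte gene in KO versus WT, Het versus WT and KO versus Het, with bars of 1 standard error; filled points passed an adjusted p of 0.05 in edgeR's quasi-likelihood test. Aqp4 and Bcan lie at -2.54 and -1.97 in KO versus WT, S100b has the widest bars of the low genes, and Sparcl1 lies at 0.01 in KO versus WT and -0.33 in Het versus WT.

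Bcan and Ncan encode brevican and neurocan, chondroitin sulfate proteoglycans of the lectican family that bind hyaluronan in the brain matrix. Brevican comes mostly from glia, while neurocan is also made by neurons around birth. Bcan (chromosome 3, 87987531 to 88000230, minus strand) was at 193, 195 and 196 CPM in the WT libraries, 70.3, 68.3 and 77.5 CPM in Het and 51.9, 47.1 and 49.7 CPM in KO. None of the 3 groups overlapped, and the order was WT, then Het, then KO. Relative to WT, Bcan fell by 1.97 on the log2 scale in KO (SE 0.06, adjusted p = 8.2e-14), a 3.93-fold lower level. It fell by 1.43 in Het (SE 0.06, adjusted p = 6.4e-12), or 2.70-fold.

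Ncan (chromosome 8, 70093085 to 70120873, minus strand), which had the highest mean CPM of the 10, was at 1009, 938 and 891 CPM in WT, 823, 794 and 854 CPM in Het and 780, 835 and 711 CPM in KO. Each Het and KO library was below each WT library, and the Het and KO libraries overlapped. The log2 fold change of KO to WT was -0.29 (SE 0.06, adjusted p = 0.00092), and that of Het to WT was -0.20 (SE 0.06, adjusted p = 0.015). The Het call did not hold without WT replicate 1 (adjusted p = 0.079), without Het replicate 1 (0.051) or without Het replicate 2 (0.079). It was also lost with no scaling beyond the library total (0.053) and with limma on log2(FPKM + 1) or log2(FPKM + 0.1), with adjusted p of 0.074 and 0.073. So the pair did not move alike: the log2 ratio of Bcan to Ncan, from FPKM and so per length, was -1.14 ± 0.10 in WT, -2.38 ± 0.05 in Het and -2.82 ± 0.16 in KO (SD, n = 3), with no overlap between the genotypes.

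Of 20 genes for other lecticans, their link proteins, receptors, synthases and proteases, 18 were tested. In KO versus WT 11 were lower and 4 higher (median -0.39), and in Het versus WT 9 were lower and 4 higher (median -0.23). The lectican Vcan (versican), at 152 ± 7.5, 129 ± 4.5 and 143 ± 8.2 CPM in WT, Het and KO, had log2 fold changes of -0.09 in KO (SE 0.06, adjusted p = 0.21) and -0.23 in Het (SE 0.06, adjusted p = 0.0028). The log2 FPKM ratio of Ncan to Vcan was 1.75 ± 0.15 in WT, 1.78 ± 0.08 in Het and 1.55 ± 0.15 in KO. Hapln1, whose link protein fixes lecticans to hyaluronan, was at 2.88 ± 0.46, 0.753 ± 0.12 and 0.378 ± 0.28 CPM and fell by 2.89 on the log2 scale in KO (SE 0.37, adjusted p = 6.3e-06). Cd44, a hyaluronan receptor, fell by 2.08 in KO (SE 0.18, adjusted p = 7.5e-08). The higher genes of the list were led by the lectican-cleaving proteases Adamts1, at 1.66 (SE 0.19, adjusted p = 2.9e-05), and Adamts4, at 1.40 (SE 0.11, adjusted p = 2.6e-08).

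Slc1a2 encodes the main glutamate transporter of mature astrocytes. Slc1a2 (chromosome 2, 102658659 to 102790784, plus strand) was at 242, 219 and 192 CPM in WT, 96.3, 92.7 and 101 CPM in Het and 78.5, 69.7 and 81.6 CPM in KO. The 3 genotypes did not overlap, and the WT libraries were spread more widely than the others. The log2 fold change was -1.51 in KO (SE 0.08, adjusted p = 2.7e-09; 2.84-fold lower) and -1.17 in Het (SE 0.08, adjusted p = 6.2e-08; 2.25-fold lower). The antisense gene Gm13872, which overlaps 1.44% of the Slc1a2 exon bases, had 0 or 1 counts per library.

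Slc1a3, the glutamate transporter that radial glia and young astrocytes already use, was at 384 ± 4.3 CPM in WT, 221 ± 5.9 in Het and 231 ± 14 in KO, with log2 fold changes of -0.73 in KO (SE 0.05, adjusted p = 1.1e-08) and -0.80 in Het (SE 0.05, adjusted p = 7.1e-09). The log2 ratio of Slc1a2 to Slc1a3, from FPKM, was -0.82 ± 0.18 in WT, -1.19 ± 0.07 in Het and -1.59 ± 0.08 in KO, without overlap between genotypes. Among the 15 genes of a list for glutamate and glutamine handling, which holds Slc1a3, 11 were lower and none higher in KO (median -0.46), and 10 were lower and none higher in Het (median -0.28). Glul, the glutamine synthetase of astrocytes, fell by 0.43 in KO (SE 0.11, adjusted p = 0.0055) and by 0.32 in Het (SE 0.11, adjusted p = 0.029). Grm5, a glutamate receptor of neurons and immature astrocytes, fell by 0.95 in KO (SE 0.06, adjusted p = 1.1e-09).

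Slc4a4 encodes an electrogenic sodium bicarbonate cotransporter through which astrocytes regulate pH. Slc4a4 (chromosome 5, 88886818 to 89239653, plus strand) was at 78.6, 62.5 and 67.9 CPM in WT, 26.5, 23.9 and 25.9 CPM in Het and 25.8, 23.3 and 24.1 CPM in KO. All 6 Het and KO libraries lay within 23.3 to 26.5 CPM, far below the WT libraries. The log2 fold change was -1.51 in KO (SE 0.09, adjusted p = 3.8e-10; 2.85-fold lower) and -1.45 in Het (SE 0.09, adjusted p = 1.1e-09; 2.74-fold lower). Slc4a10, a bicarbonate transporter of neurons, fell by 0.48 in KO (SE 0.08, adjusted p = 0.00011) and by 0.44 in Het (SE 0.08, adjusted p = 0.00032). The log2 FPKM ratio of Slc4a4 to Slc4a10 was 1.43 ± 0.07 in WT, 0.42 ± 0.13 in Het and 0.39 ± 0.10 in KO.

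Aqp4 encodes the water channel of astrocyte endfeet. Aqp4 lies on chromosome 18 (15389496 to 15410982, minus strand), 53.9 Mb from Tcf4 on the same chromosome, and its values were 36.9, 38.1 and 36.0 CPM in WT, 8.03, 11.8 and 8.65 CPM in Het and 7.46, 4.95 and 6.64 CPM in KO. The WT libraries were close to each other, and the genotypes did not overlap. Its log2 fold change was the largest of the members outside S100b: -2.54 in KO (SE 0.15, adjusted p = 2.1e-08; 5.80-fold lower) and -1.96 in Het (SE 0.14, adjusted p = 3e-07; 3.89-fold lower). Whether linkage of Aqp4 to the targeted locus bears on its level was not tested.

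Gja1 encodes the connexin that joins astrocytes through gap junctions and is also made by radial glia. Gja1 (chromosome 10, 56377330 to 56402513, plus strand) was at 58.5, 45.3 and 48.0 CPM in WT, 32.8, 25.7 and 26.4 CPM in Het and 26.1, 23.3 and 28.2 CPM in KO. WT was above the other 6 libraries, which overlapped. Gja1 fell by 0.96 on the log2 scale in KO (SE 0.11, adjusted p = 9.4e-06; 1.95-fold) and by 0.84 in Het (SE 0.11, adjusted p = 5e-05; 1.79-fold). Gjb6, the connexin of more mature astrocytes, had 12, 1 and 9 counts in WT, 3, 2 and 2 in Het and 1, 2 and 1 in KO, too few to be tested.

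Of 25 genes for potassium, water, chloride and bicarbonate transport and for endfoot and junction proteins, 23 were tested. In KO 11 were lower and 2 higher (median -0.16), and in Het 12 were lower and 1 higher (median -0.40). Kcnj10, the inward-rectifying potassium channel that shares the endfoot with Aqp4, was at 39.0 ± 2.6, 24.2 ± 1.8 and 25.6 ± 0.87 CPM and fell by 0.61 in KO (SE 0.08, adjusted p = 5.8e-06) and by 0.69 in Het (SE 0.08, adjusted p = 2.5e-06). The log2 FPKM ratio of Aqp4 to Kcnj10 was 0.01 ± 0.09 in WT, -1.28 ± 0.40 in Het and -1.94 ± 0.30 in KO, with no overlap. Hepacam, a cell adhesion protein of astrocyte contacts, fell by 0.91 in KO (SE 0.10, adjusted p = 7.9e-07). The chloride cotransporter Slc12a2, at 50.5 ± 7.7, 52.9 ± 4.2 and 53.2 ± 2.9 CPM, was not called in either comparison (0.08 in KO, SE 0.09, adjusted p = 0.53).

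**Figure D3:**
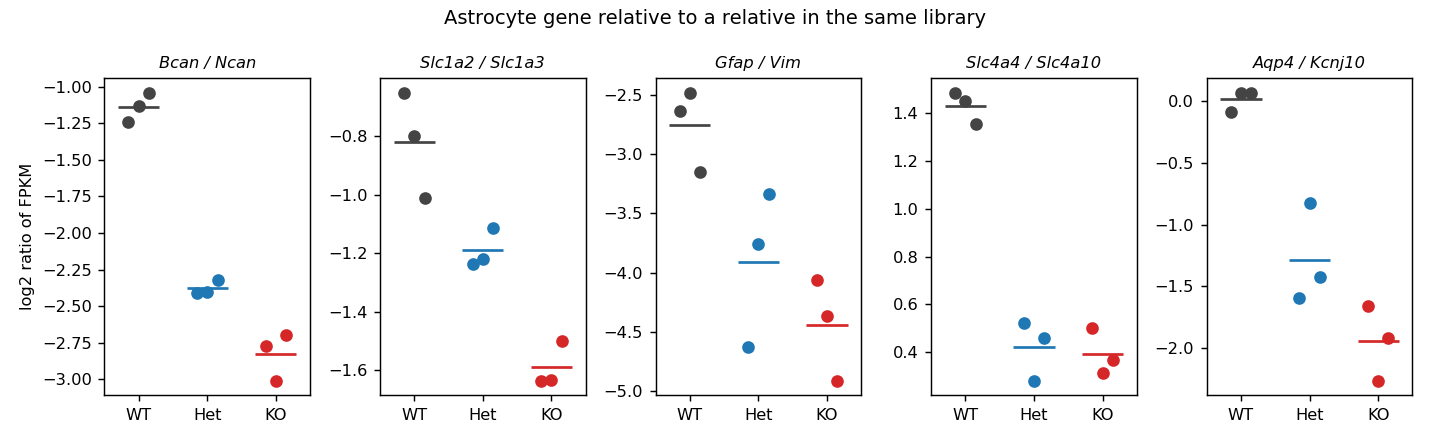
Log2 ratio of FPKM between an astrocyte gene and a relative (vertical axis) in each library (points) of the WT, Het and KO genotypes, with genotype means as lines. Bcan relative to Ncan goes from -1.14 in WT to -2.82 in KO and Aqp4 relative to Kcnj10 from 0.01 to -1.94, whereas the Gfap to Vim ratios of Het and KO overlap.

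Aldh1l1 encodes a cytosolic folate enzyme that is widely used as a marker of the whole astrocyte lineage. Aldh1l1 (chromosome 6, 90486427 to 90600203, plus strand) was at 77.0, 80.8 and 92.7 CPM in WT, 44.2, 40.8 and 39.5 CPM in Het and 41.0, 32.1 and 40.6 CPM in KO. The WT libraries stood above the rest, and Het and KO overlapped. Aldh1l1 fell by 1.14 on the log2 scale in KO (SE 0.09, adjusted p = 1.3e-07; 2.20-fold) and by 1.01 in Het (SE 0.09, adjusted p = 7.4e-07; 2.01-fold). Of its 31-base words, 11.4% also occur, on either strand, in transcripts of other genes, against at most 1.53% for the other members. The opposite-strand gene Gm15756, which overlaps 11% of its exon bases, had 0 counts in all libraries. Words under Gm15756 count among the 11.4%, and the share that comes from any other gene was not separated.

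S100b encodes a calcium-binding protein of maturing astrocytes that is also found in oligodendrocyte precursors. S100b (chromosome 10, 76253853 to 76261159, plus strand) had 44, 21 and 40 raw counts in WT, 2, 20 and 6 in Het and 3, 4 and 8 in KO. The highest Het library (replicate 2, 20 counts) lay just under the lowest WT library (replicate 2, 21 counts) in raw counts. Scaled for depth, these 2 libraries were at 0.677 and 0.935 CPM. The log2 fold change was -3.10 in KO (SE 0.55, adjusted p = 0.00024) and -2.20 in Het (SE 0.49, adjusted p = 0.0021), and without Het replicate 2 the Het value was -3.32. On log2(FPKM + 1), which compresses low values, limma gave -0.84 in KO and -0.73 in Het, with both still called (adjusted p = 0.00042 and 0.0015). S100b was above the filter's cutoff of 0.379 CPM in 3 WT libraries, 1 Het library and no KO library, and a filter of 1 CPM in 3 libraries removed it. It lies opposite Dip2a, which had 1312 to 1900 counts per library, with no exon bases in common.

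Gfap encodes the glial fibrillary acidic protein, an intermediate filament protein that marks mature and reactive astrocytes. Gfap (chromosome 11, 102887336 to 102900912, minus strand) was at 41.9, 43.3 and 27.9 CPM in WT, 17.5, 31.4 and 48.8 CPM in Het and 33.0, 25.9 and 16.8 CPM in KO. The highest and the next-to-lowest value of all 9 libraries were both Het, and all 3 genotypes overlapped. Gfap was not called: the log2 fold change was -0.58 in KO (SE 0.44, adjusted p = 0.31, 95% interval -1.64 to 0.49) and -0.21 in Het (SE 0.43, adjusted p = 0.73, 95% interval -1.26 to 0.85). A fall as large as that of Aldh1l1 lies inside the KO interval, and one as large as that of Slc1a2 lies just inside its lower end. Vim (vimentin), the filament protein of radial glia and immature astrocytes, went the other way, at 138 ± 5.1, 248 ± 20 and 293 ± 12 CPM, with log2 fold changes of 1.09 in KO (SE 0.06, adjusted p = 4.4e-10) and 0.85 in Het (SE 0.06, adjusted p = 1.5e-08). The log2 FPKM ratio of Gfap to Vim was -2.75 ± 0.35 in WT, -3.91 ± 0.66 in Het and -4.45 ± 0.43 in KO, with every WT library above the other 6.

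Among 20 other intermediate filament, S100 and folate genes, 19 were tested. In KO 7 were lower and 6 higher (median 0.03), and in Het 5 were lower and 7 higher (median 0.09). The shares over all genes were 26.3% lower and 26.5% higher in KO, and 23.4% and 22.5% in Het. Of the 4 S100 genes named by the rule, S100a1 fell by 1.46 (SE 0.17, adjusted p = 1.8e-06), S100a16 by 1.33 (SE 0.10, adjusted p = 1.7e-08) and S100a13 by 1.14 (SE 0.19, adjusted p = 8.4e-05) in KO, and S100a10 was not called (0.03, SE 0.30, adjusted p = 0.94). The folate enzyme Mthfd1, at 31.5 ± 0.42, 33.6 ± 0.98 and 34.8 ± 1.9 CPM, was not called in KO (0.15, SE 0.07, adjusted p = 0.084).

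Sparcl1 encodes hevin, a secreted protein that promotes excitatory synapse formation and is made by astrocytes, endothelial cells and some neurons. Sparcl1 (chromosome 5, 104079111 to 104113733, minus strand) was at 363, 400.3 and 367 CPM in WT, 288, 302 and 309 CPM in Het and 383, 377 and 376 CPM in KO. All Het libraries were below all others, and the KO libraries lay inside the WT range. The log2 fold change was -0.33 in Het (SE 0.05, adjusted p = 0.00011) and 0.01 in KO (SE 0.05, adjusted p = 0.94), with a 95% interval of -0.13 to 0.14 for KO. A change of the size seen in Het lies outside that KO interval. Its paralog Sparc, which counteracts hevin at synapses, was at 203 ± 3.8, 215 ± 17 and 225 ± 9.1 CPM, with log2 fold changes of 0.15 in KO (SE 0.06, adjusted p = 0.043) and 0.09 in Het (SE 0.06, adjusted p = 0.25).

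In a list of 20 other astrocyte factors that act at synapses, 6 were lower and 8 higher in KO (median -0.15), and 5 were lower and 4 higher in Het (median 0.04). Over all genes, 26.3% were lower and 26.5% higher in KO, and 23.4% and 22.5% in Het. Gpc4, a glypican that recruits glutamate receptors, rose by 1.15 in KO (SE 0.10, adjusted p = 1.1e-07), and Thbs1, a synapse-promoting thrombospondin, rose by 1.09 (SE 0.09, adjusted p = 3.7e-08). Gpc5, another glypican, fell by 2.29 (SE 0.21, adjusted p = 1.7e-07), and Mertk, a phagocytic receptor of astrocytes and microglia, fell by 1.03 (SE 0.18, adjusted p = 0.00012).

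Between Het and KO the members differed less. By edgeR's quasi-likelihood test, 3 members were lower in KO than in Het (Bcan, Slc1a2 and Aqp4), 1 was higher (Sparcl1) and 6 were not called, with a median log2 fold change of -0.23. Over all genes 16.7% were called in this comparison (8.44% lower and 8.3% higher). That background rests on single libraries: 2556 genes were called with all libraries, 1467 without KO replicate 1 and 1432 without KO replicate 2. Bcan was lower by 0.54 on the log2 scale (-0.54, SE 0.06, adjusted p = 4.8e-06). Slc1a2 was at -0.34 (SE 0.08, adjusted p = 0.010), a call that did not hold without Het replicate 3 (-0.31, adjusted p = 0.05). Aqp4 was at -0.58 (SE 0.16, adjusted p = 0.023), a call that did not hold without Het replicate 2 (-0.40, adjusted p = 0.073), without KO replicate 2 (-0.43, adjusted p = 0.072) and with limma on log2(FPKM + 1) (-0.36, adjusted p = 0.052). Sparcl1 was higher in KO than in Het by 0.33 (SE 0.05, adjusted p = 0.00039).

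The members not called between Het and KO had intervals of different widths. Slc4a4 had a difference of -0.06 (95% interval -0.27 to 0.15), Ncan of -0.09 (-0.24 to 0.06), Gja1 of -0.12 (-0.41 to 0.16) and Aldh1l1 of -0.13 (-0.36 to 0.10). For these 4 genes, a Het to KO difference as large as that of Bcan lies outside the interval. The intervals of S100b (-2.56 to 0.75) and Gfap (-1.44 to 0.69) were too wide for such a statement.

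Because the design holds 3 gene doses, the Het level was set against the midpoint of KO and WT on the log2 scale. By edgeR's quasi-likelihood test, 7 members lay below the midpoint in Het, none above (Gfap, at 0.08, was the only one with a positive difference), and Ncan, S100b and Gfap were not called, with a median difference of -0.43. Over all genes 24.5% were called in this contrast, 12.7% below and 11.7% above the midpoint. Of those calls 52% were below the midpoint with TMM factors and 40.9% with no scaling beyond the library total. The differences were -0.70 for Slc4a4 (SE 0.08, adjusted p = 7.1e-06), -0.69 for Aqp4 (SE 0.13, adjusted p = 0.0024) and -0.45 for Bcan (SE 0.05, adjusted p = 8.4e-06). Aldh1l1 lay at -0.44 (SE 0.08, adjusted p = 0.0015), Slc1a2 at -0.42 (SE 0.07, adjusted p = 0.00075) and Sparcl1 at -0.33 (SE 0.05, adjusted p = 9.9e-05). Gja1 lay at -0.36 (SE 0.10, adjusted p = 0.019), a call that ended without Het replicate 2 (adjusted p = 0.10) or Het replicate 3 (0.10). S100b lay at -0.65 (SE 0.53, adjusted p = 0.41) and was called only without Het replicate 2 (-1.77, adjusted p = 0.045). For 6 of the 7 called genes the Het level was thus nearer to KO than to WT. The exception is Sparcl1, whose WT and KO levels were close to each other and both above Het.

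**Figure D4:**
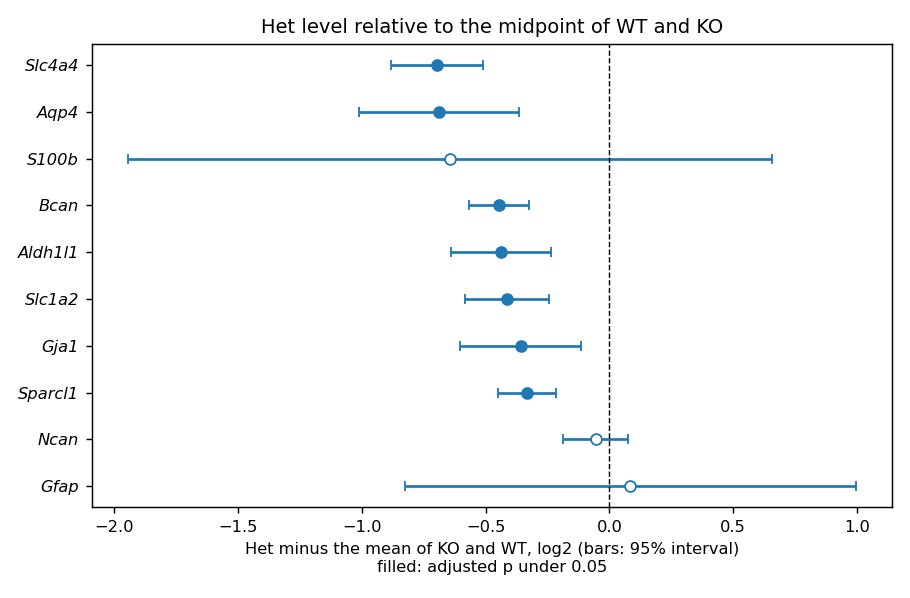
Difference between the Het level and the mean of the KO and WT levels on the log2 scale (horizontal axis) for each astrocyte gene, with 95% intervals; filled points passed an adjusted p of 0.05 in edgeR's quasi-likelihood test. The dashed line at 0 marks the midpoint, and 7 genes, from Sparcl1 at -0.33 to Slc4a4 at -0.70, lie below it with filled points.

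Levels were compared between genes by FPKM, which divides by gene length. In WT, Ncan (129 FPKM), Slc1a2 (124) and Sparcl1 (118) were the highest members and overlapped with their neighbours in that order. Bcan (58.4), Aldh1l1 (46.8) and Slc4a4 (24.6) followed without overlap, then Gfap (19.8) and Gja1 (14.1 to 18.7), which overlapped with each other and Gfap also with Slc4a4. Aqp4 (7.13) and S100b (1.02) were last. In KO, Sparcl1 (122 FPKM) was above Ncan (108) without overlap, and Slc1a2 (44.8) was well below both. Bcan (15.3), Gfap (13.5), Slc4a4 (8.85) and Gja1 (8.39) overlapped with their neighbours in the KO order. In Het, Ncan (116 FPKM), Sparcl1 (97.7) and Slc1a2 (57.1) led without overlap, and the ranges of Aldh1l1 (24.1), Bcan (22.4), Gfap (17.7), Slc4a4 (9.31) and Gja1 (9.24) each overlapped with the next. Slc1a2 took 21.1% to 24.3% of the summed FPKM of the 10 genes in WT, 15.7% to 16.4% in Het and 11.9% to 14.2% in KO.

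A wider list of 40 further astrocyte genes, none of them a member, had 38 tested genes. In KO 30 were lower and none higher (median -0.59), and in Het 32 were lower and 1 higher (median -0.68). The summed level of the list was 2956 to 3029 CPM in WT, 1740 to 1904 in Het and 1723 to 1855 in KO. Slc6a11, a GABA transporter of astrocytes, was at 251 ± 6.5, 108 ± 4.2 and 73.4 ± 6.2 CPM and fell by 1.77 in KO (SE 0.06, adjusted p = 6.9e-13). Gpr37l1, an astrocyte receptor, fell by 2.88 in KO (SE 0.23, adjusted p = 3e-08), and Slc25a18, a mitochondrial glutamate carrier, fell by 2.54 (SE 0.19, adjusted p = 1.6e-08). Of the genes not called in KO, the metallothionein Mt3 was at 101 ± 7.4, 102 ± 12 and 109 ± 11 CPM, with a log2 fold change of 0.11 (SE 0.09, adjusted p = 0.35). The gene that was higher in Het, chosen after its value was seen, was the metallothionein Mt2, at 0.28.

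A list of 22 genes held genes of radial glia and dividing cells, only some of them shared with astrocytes. Of these 22, 8 were lower and 8 higher in KO (median 0.06), an even split like that of all genes (26.3% lower and 26.5% higher). In Het 10 were lower and 7 higher (median -0.26), against 23.4% and 22.5% of all genes. Vim rose, as given above, and the proliferation gene Mki67 rose by 1.16 in KO (SE 0.17, adjusted p = 0.00036). Fabp7, a lipid-binding protein of radial glia and young astrocytes, fell by 0.42 in KO (SE 0.06, adjusted p = 1.7e-05), and the membrane proteoglycan Cspg5 fell by 0.97 (SE 0.06, adjusted p = 7.5e-10). Of 27 transcription factors of gliogenesis, 12 were lower and 5 higher in KO (median -0.34) and 11 were lower and 6 higher in Het (median -0.22). Sox9, which helps start gliogenesis, was at 44.0 ± 6.4, 29.5 ± 4.9 and 38.1 ± 3.9 CPM. Its fold change was -0.58 in Het (SE 0.14, adjusted p = 0.0052) and -0.20 in KO (SE 0.14, adjusted p = 0.23). Nfia, which drives astrocyte genes, was not called in KO (0.24, SE 0.15, adjusted p = 0.22), while its relative Nfib rose by 1.15 (SE 0.11, adjusted p = 1.4e-05). Id2 fell by 1.48 in KO (SE 0.11, adjusted p = 1.3e-06) but rose by 0.57 in Het (SE 0.10, adjusted p = 0.0013). Rorb fell by 1.36 in KO (SE 0.21, adjusted p = 0.00073).

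Of 35 genes for cytokine, BMP, Notch, FGF and neuregulin signalling, pathways that can induce astrocyte genes, 30 were tested, with 8 lower and 12 higher in KO (median 0.07) and 9 lower and 8 higher in Het (median 0.02), against 26.3% lower and 26.5% higher over all genes in KO and 23.4% and 22.5% in Het. Stat3, the transcription factor that cytokines activate on the Gfap gene, was at 41.1 ± 2.3, 40.0 ± 1.3 and 41.7 ± 2.3 CPM, with a log2 fold change of 0.02 in KO (SE 0.07, adjusted p = 0.81). Jag1, a Notch ligand, rose by 0.82 in KO (SE 0.15, adjusted p = 0.00034), and Rbpj, the DNA-binding partner of Notch, rose by 0.69 (SE 0.08, adjusted p = 1.9e-06).

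Markers of other cells that the dissection could hold moved with the genotypes as well. Of 14 tested oligodendrocyte lineage markers, 13 were lower in KO and 12 in Het, with medians of -1.04 and -1.12, and their summed level was 466 to 498 CPM in WT, 249 to 257 in Het and 245 to 280 in KO. The marker that went the other way in both was Mog, chosen after its value was seen. Of 13 microglia markers, 9 were lower in KO and 11 in Het and none was higher, with summed levels of 153 to 169, 87.8 to 90.9 and 97.4 to 106 CPM. Of 16 striatal neuron markers, 15 were lower in KO and all 16 in Het, with medians of -2.92 and -3.14. Rxrg, a nuclear receptor of striatal neurons, was at 51.5 ± 3.7, 2.61 ± 0.28 and 2.51 ± 0.47 CPM. The striatum is not part of the dorsal telencephalon. The median change of its markers in KO was larger than the change of 9 of the 10 members, and its part in the member values was not tested.

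Markers of dorsal telencephalon itself were mostly higher, 10 of 15 in each comparison, with 2 lower in each and medians of 0.61 in KO and 0.40 in Het. Of 12 postmitotic neuron markers, 7 were lower and 1 higher in KO (median -0.35), and 6 were lower and 1 higher in Het (median -0.20). The neurofilament genes Nefl and Nefm fell by 1.75 (SE 0.12, adjusted p = 9e-08) and 1.01 (SE 0.07, adjusted p = 1.9e-09) in KO, while the summed levels of the list, in which the abundant Tubb3 and Map2 weigh most, were 11071 to 11585 CPM in WT, 10273 to 10916 in Het and 10173 to 10569 in KO. Of the 12 endothelial markers, 4 were higher and 2 lower in KO, and 8 were higher and none lower in Het, with summed levels of 262 to 267, 307 to 339 and 325 to 343 CPM. Summed levels of the ependymal and choroid plexus markers (19.9 to 30.1, 18.7 to 44.3 and 31.4 to 53.7 CPM) and of the meningeal fibroblast markers (88.5 to 119, 96.6 to 118 and 77.4 to 88.1 CPM) overlapped between WT and Het. In KO the ependymal and choroid plexus sum lay above the WT range and the meningeal sum below it. Ttr, a choroid plexus marker, was higher in KO than in WT by 4.95 on the log2 scale (SE 1.48, adjusted p = 0.031), at 0.597 ± 0.50 CPM in WT and 18.4 ± 10 CPM in KO. No listed marker was at 0 in all 9 libraries. The lists overlap in part, and the part of these cell types in the member results was not tested.

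**Figure D5:**
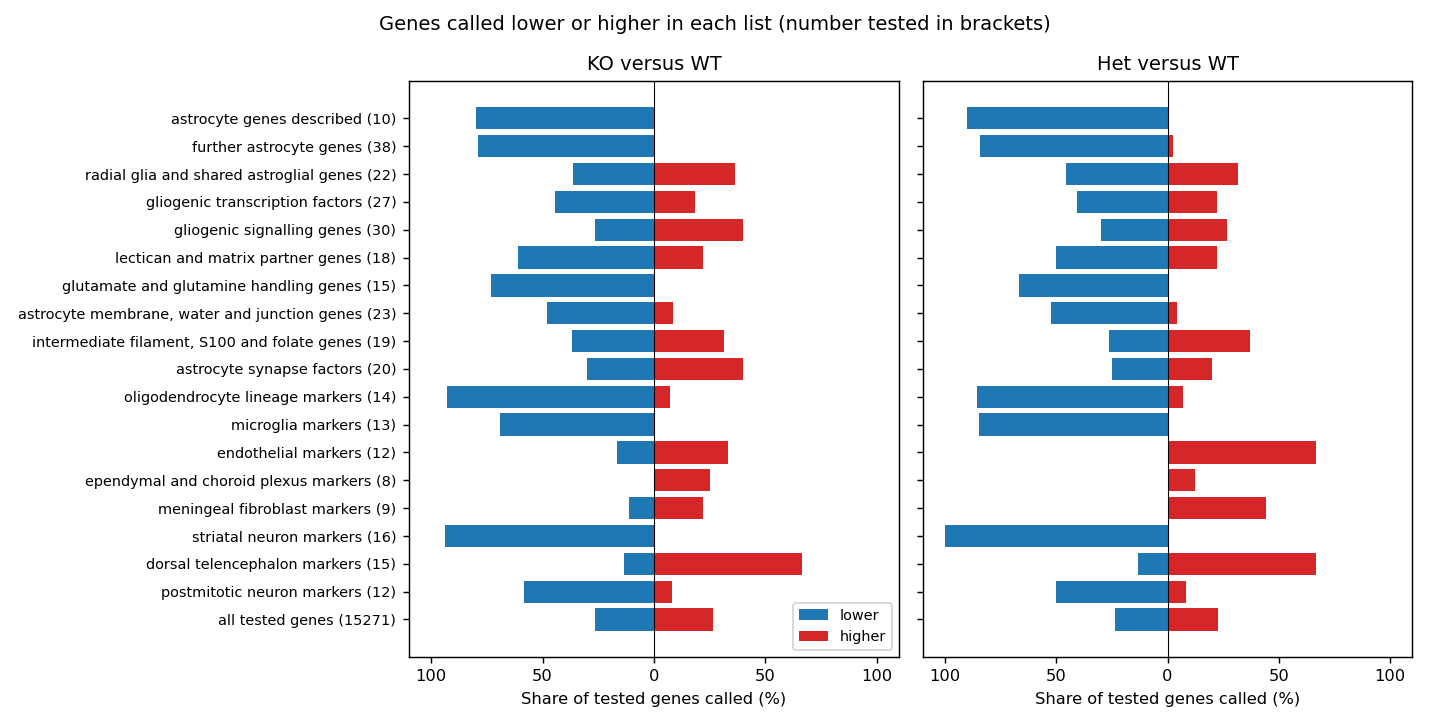
Share of tested genes (horizontal axis, percent) called lower (blue, to the left) or higher (red, to the right) in KO versus WT and in Het versus WT, for the astrocyte genes, each further list and all genes tested. All genes split about evenly (26.3% lower and 26.5% higher in KO). The astrocyte, further astrocyte, glutamate, membrane, oligodendrocyte, microglia, striatal and postmitotic neuron rows lie mostly on the lower side. So, less one-sidedly, do the lectican and gliogenic transcription factor rows.

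The pattern of the members over libraries was summarised as the mean of their standardised log2 CPM values and compared with that of 10031 genes with a mean log2 CPM of at least 3. The most similar genes by Pearson correlation over the 9 libraries were Dag1 (0.994), which encodes dystroglycan, Abcb9 (0.994), Fam163b (0.993), Laptm5 (0.992) and Hemk1 (0.992). The 9 libraries form 3 genotype clusters, and 1028 of the genes had a correlation above 0.9, so these values mostly describe the step from WT to the other genotypes. With each genotype's mean subtracted, the closest genes were Whrn (0.977), Dag1 (0.971) and Ptpru (0.960). Between members, the correlation within genotypes ran from -0.79 to 0.78 over the 45 pairs, with a median of 0.04. These correlations are descriptions over the same 9 libraries, and whether libraries of a genotype were prepared together is not given in the labels.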

How the data were processed

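Total RNA of newborn dorsal telencephalon was sequenced in 9 libraries. Per the labels' protocols, dissected tissue was frozen, RNA came from RNeasy Plus columns and an NEBNext Ultra kit gave the libraries. Read counts and FPKM values were deposited by the authors. Each FPKM value was found to be the count over library total and a gene length, so it is no second measurement. The submitters' processing notes name DESeq 1.10.1, HTSeq 0.6.1, TopHat2 2.0.9, Bowtie2 2.0.6 and the build mm10, with no roles. How strand and multiply matching reads were handled: not given in the sources used here.

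Tests used edgeR 4.0.16 in R 4.3.3 on the counts (filterByExpr with a minimum count of 10 and total of 15, TMM factors, robust quasi-likelihood fit of all 9 libraries, 6 residual degrees of freedom). This kept 15271 genes holding 99.9% of counts. Calls are Benjamini-Hochberg adjusted p under 0.05 over all of them. Adjusted p-values without another tool's name are from edgeR's quasi-likelihood test, and SE is the log2 fold change divided by the square root of F. The 95% intervals take this SE and a t distribution on the 6 residual degrees of freedom, not the degrees of freedom of the test. Of 41128 genes, 40254 were named by GENCODE M21. CPM values use TMM-scaled sizes.

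The members and lists were chosen with earlier results of these data known. Named genes were the members, Tcf4, a set of relatives, and from each list up to 4 called genes with the largest KO versus WT change and up to 2 uncalled ones with the highest CPM. The choice among these for printing was made with their values known. Alternatives were other scaling, other filters, DESeq2 1.42.0, limma 3.58.1 on log2(FPKM + 1 or 0.1), only the genotypes compared, a replicate block and leaving out each library. Replicates of a genotype differed by more than sampling noise. The procedure was tested on simulated counts. Plots used matplotlib 3.10.9 (Python 3.11.15).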

Additional observations from a re-analysis of the deposited data

How the results depend on the processing

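The number of members called stayed within 1.5 times its value under every alternative: 7 to 8 in KO versus WT, 8 to 9 in Het versus WT, 3 to 4 in KO versus Het and 6 to 7 against the midpoint. Over all genes, 7050 to 8409, 5806 to 7239, 1432 to 2869 and 2854 to 4018 were called, and leaving out single libraries gave 1432 to 2561 in KO versus Het. Of the member fold changes recomputed, 719 kept direction and side of the threshold, 13 lost and 1 gained the call, all given in the report apart from the block, and 12 changed sign, none of them a called value. Sparcl1 in KO versus WT was -0.0031 with relative log expression factors, -0.0030 with DESeq2, -0.0086 with a filter of 1 CPM in 3 libraries, and -0.026 to 0.052 on leaving out single libraries (below 0 without WT replicate 1, WT replicate 3 or KO replicate 1). On leaving out single libraries Gfap ran from -0.61 to 0.10 in Het versus WT (above 0 without Het replicate 1), from -0.68 to 0.033 in KO versus Het (above 0 without Het replicate 3) and from -0.32 to 0.39 against the midpoint (below 0 without WT, Het or KO replicate 3). S100b in KO versus Het ran from -1.36 to 0.22 (above 0 without Het replicate 2). The cause was not tested. Of the list counts, 918 stayed within 1.5 times and 51 did not; in the comparisons with WT these were counts of ependymal and choroid plexus (0 to 6) and meningeal markers (2 to 6).

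No pairing by replicate number was seen: 0 of 9 same-numbered pairs had a correlation of deviations above 0.1 (-0.11 to 0.08). These correlations cannot show that the libraries are unpaired. With the replicate block, 7775, 6641, 2166 and 3339 of all genes and 8, 9, 3 and 7 members were called in the 4 comparisons, and Aqp4 in KO versus Het had -0.57 with adjusted p = 0.067. Depth limits S100b, which had 15 to 105 counts summed per genotype.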
